A study of Mus musculus with 6 samples.

Results

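Dense runs of accessible chromatin in mouse embryonic stem cells are described here: stretches of the genome in which 4 or more accessible regions follow each other with no gap wider than 3000 bp. The 2648 member regions form 585 runs on chromosomes 1 to 19 and make up 3.88% of the 68288 autosomal regions, out of 69689 in the whole series. They were chosen by position alone, so the number of regions in a run, its gaps and its span are descriptions of the choice. The cluster names and the genes beside the runs were not used to choose them. Accessible regions are stretches of DNA with few nucleosomes, where transcription factors can bind. Promoters sit at the starts of genes and enhancers act from a distance, and several enhancers of 1 gene often lie close together, above all at genes that define a cell type. In embryonic stem cells such enhancer groups are known at genes of the pluripotency network, which is built around Pou5f1, Sox2 and Nanog.

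The series profiled R1 cells, a wild-type mouse embryonic stem cell line grown on fibroblast feeders, by ACC-seq, in which a transposase inserts sequencing adapters into open DNA. Its 6 libraries form 3 groups of 2. Fresh cells were not fixed and were tagmented for 30 min at 37 °C. Fix cells were crosslinked with 1% formaldehyde (10 min) before tagmentation for 30 min at 55 °C. Fix_1,6-Hex cells were treated in the same way, except that 1,6-hexanediol at 10% (w/v), which disperses many condensates, was present for 30 s before fixation and throughout it. All groups are the same line, so no genotype differs, and temperature changed together with fixation. The table used here covers the series as a whole and gives each region's position on mm10 and a cluster name from cluster 1 to cluster 9. It has no value per library, so no difference between Fresh, Fix and Fix_1,6-Hex could be measured in the runs, and the depth behind each region is unknown. No source used here gives the accessibility pattern that each cluster name stands for, and the names serve only as labels. Errors are the SD over 19 autosomes. Autosomes are not replicates, and no test was made. Of 9 markers of embryonic stem cells, all 9 had an accessible region at a gene end, and so did 7 of 12 fibroblast markers. Such a region is common, since 12914 of all 20665 autosomal protein-coding genes had one. A run overlapped 2 of the 9 stem cell markers, Nanog and Esrrb, and 2 of the 12 fibroblast markers, Fn1 and Pdgfrb. These counts bear on the label of the cells only as far as accessibility does.

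Of the sequences in the runs, those of the miR-290 cluster are shown first because these microRNAs are characteristic of mouse embryonic stem cells, where they promote the rapid passage from G1 to S phase. Their run spanned 30.6 kb at chr7:3192911-3223492 on mm10 and held 6 regions, of clusters 4, 1, 5, 2, 2 and 4 in order along the chromosome. The hairpins lay in its last region, a cluster 4 region of 7322 bp. This run held 2 regions of cluster 2, the rarest cluster. The mature sequences below are from RefSeq (GRCm38.p6), printed 5′ to 3′ with the seed, bases 2 to 8, in capitals. The first 3 share a seed, and the other 2 have a seed of their own each.
mmu-miR-291a-3p: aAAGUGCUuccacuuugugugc
mmu-miR-294-3p: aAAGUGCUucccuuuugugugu
mmu-miR-295-3p: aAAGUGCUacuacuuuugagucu
mmu-miR-290a-3p: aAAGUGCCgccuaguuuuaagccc
mmu-miR-291b-3p: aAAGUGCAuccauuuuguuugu

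Another run held microRNAs that are produced from the transcript of a replication gene. Mir25, Mir93 and Mir106b lie inside Mcm7, which encodes a subunit of the replicative helicase, and their hairpins were in a cluster 7 region of a run of 4 regions at chr5:138160213-138167463 (clusters 8, 8, 7 and 7). The mature 5p forms of Mir93 and Mir106b, again with bases 2 to 8 in capitals, have the same seed.
mmu-miR-93-5p: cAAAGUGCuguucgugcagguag
mmu-miR-106b-5p: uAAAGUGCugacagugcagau

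Of 919 microRNA hairpins on chromosomes 1 to 19, 28 lay inside the span of a run, 26 of them overlapping a member region, and they fell into 14 runs. The run of the miR-290 cluster was named by rule, as the run with most regions of cluster 2, and the run at Mcm7 was named after its values were seen.

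Promoters from the longest runs are shown next, because promoters in these runs differ in what their sequence is like. For each of the leading runs by number of regions, a single promoter is printed from RefSeq (GRCm38.p6), 5′ to 3′ on the strand of the gene. It is the 250 bases before a transcription start covered by a member region. Capitals mark a GC box, searched as CCGCCC on both strands. Cd9 (chr6:125494761-125495010, minus strand) and Cd151 (chr7:141467112-141467361, plus strand) encode tetraspanins, membrane proteins that organise adhesion receptors. Bcat1 (chr6:145076158-145076407, minus strand) encodes the cytosolic branched-chain amino acid transaminase. Myo10 (chr15:25752956-25753205, plus strand) encodes a myosin of filopodia, and the start shown lies inside the annotated limits of the gene.
Cd9: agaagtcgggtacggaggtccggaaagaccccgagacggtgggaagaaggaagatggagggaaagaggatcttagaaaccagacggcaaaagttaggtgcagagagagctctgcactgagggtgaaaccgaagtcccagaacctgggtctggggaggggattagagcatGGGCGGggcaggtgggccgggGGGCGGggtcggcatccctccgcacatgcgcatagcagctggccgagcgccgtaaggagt
Cd151: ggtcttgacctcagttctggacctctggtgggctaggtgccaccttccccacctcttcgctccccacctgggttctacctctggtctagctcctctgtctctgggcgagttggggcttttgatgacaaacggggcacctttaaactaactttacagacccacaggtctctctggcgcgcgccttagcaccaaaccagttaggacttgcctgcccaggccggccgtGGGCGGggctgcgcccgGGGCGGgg
Bcat1: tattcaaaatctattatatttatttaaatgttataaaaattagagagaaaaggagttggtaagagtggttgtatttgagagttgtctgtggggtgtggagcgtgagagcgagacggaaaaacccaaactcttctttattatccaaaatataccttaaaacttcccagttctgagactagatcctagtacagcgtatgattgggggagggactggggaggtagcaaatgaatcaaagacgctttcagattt
Myo10: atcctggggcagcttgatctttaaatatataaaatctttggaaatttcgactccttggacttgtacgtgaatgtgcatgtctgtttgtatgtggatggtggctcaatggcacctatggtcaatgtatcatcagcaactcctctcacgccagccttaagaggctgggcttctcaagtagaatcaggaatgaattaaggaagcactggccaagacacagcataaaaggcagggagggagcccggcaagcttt

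The printed promoters of Cd9 and Cd151 were rich in G and C (61.6% and 62.4%) with 2 GC boxes each. Those of Bcat1 and Myo10 were poorer (37.6% and 46.0%), with no GC box and with a TATAAA match. The run of Cd151 also covered promoters that are not printed, so 1 promoter does not stand for that run. Their GC content ran from 50% at a start of Slc25a22 to 63.2% at Pnpla2. A second start of Cd151 had 58% and no GC box. The printed promoter of Cd9 lay in a cluster 6 region of 7003 bp and that of Cd151 in a cluster 8 region of 1904 bp. Those of Bcat1 and Myo10 lay in cluster 3 regions of 1680 and 5667 bp. Over all 417 promoters covered by a member region, the median GC content was 62.4%, the median number of CpG was 16, and 64.7% held a GC box. The 11771 promoters in other accessible regions were close to these values, with 61.6%, 17 and 63.8%. The 7897 promoters in no accessible region had 46.8%, 2 and 11.8%. A TATAAA match was present in 6.00% of promoters in member regions, 5.26% of those in other regions and 11.7% of all 20085 promoters of 250 bases. CACGTG, the core of the E-box bound by Myc, was present in 9.59%, 8.78% and 6.69% in the same order, and CCAAT in 30.7%, 36.3% and 35.3%. By these measures, promoters in runs looked like other accessible promoters. The promoter table covers 16457 of 20665 autosomal protein-coding genes and has none on 1 autosome, so values from it are over the other 18.

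Most runs were short. There were 394 runs of 4 regions, 124 of 5 and 67 of 6 or more, and the longest had 12. The median span was 10568 bp (quartiles 8589 and 13072, range 4924 to 41567 bp), and accessible regions covered 43.4% of the 6765 kb inside runs. The median gap was 1778 bp within runs and 10944 bp between all successive regions. No gap in the table was below 1001 bp. A limit of 2900 bp would give 543 runs with 2435 regions, and one of 3100 bp 650 runs with 2953 regions. On the other side of the size limit were 1429 runs of 3 regions, 6738 of 2 and 47877 regions with no neighbour within 3000 bp. The share of regions in runs was lowest on chromosome 16 (1.92%) and highest on chromosome 15 (5.26%), with a mean of 3.77% ± 0.992 (SD, n = 19 autosomes). Chromosome 11 held the most members, 266 regions in 59 runs.

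Runs held more regions of cluster 6 and fewer of cluster 9 than the rest of the autosomes. Cluster 6 made up 17.9% of member regions, or 474 regions, and 12.3% of the 65640 other regions. By autosome its share ran from 11.1% to 29.5% in runs (median 17.4%) and from 8.601% to 15.2% outside (median 11.96%), so the ranges overlapped, and it was higher in runs on 18 of 19 autosomes. Cluster 9, the largest cluster, made up 16.5% of member regions and 26.7% of the others. Its share by autosome ran from 9.41% to 26.1% in runs (median 16.7%) and from 23.6% to 29.3% outside (median 27.4%), and it was lower in runs on all 19 autosomes. The differences were 5.56 percentage points for cluster 6 and -10.2 for cluster 9.

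The other clusters differed less. Cluster 1, the most frequent in runs, made up 21.5% of member regions against 18.6% outside and was higher on 13 autosomes. Cluster 7 lay below, with 16.5% of member regions and a difference of -2.50 points, lower on 16 autosomes. Cluster 4 (4.68% against 3.46%, higher on 14), cluster 3 (4.42% against 3.63%, higher on 15) and cluster 5 (5.93% against 4.89%, higher on 13) lay above by 1.22, 0.79 and 1.04 points. Cluster 2 (2.76% against 2.28%) was higher on 12 autosomes and cluster 8 (9.82% against 9.04%) on 9. With runs defined by midpoints at most 3500 bp apart, clusters 2, 3 and 4 were no longer above the other regions (differences of -0.20, -0.92 and -0.22 points), while the differences were 4.34 points for cluster 6 and -6.84 for cluster 9. That definition keeps wide neighbours out, and clusters 2, 3 and 4 had the widest medians (1236, 1261 and 1352 bp outside runs).

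**Figure D1:**
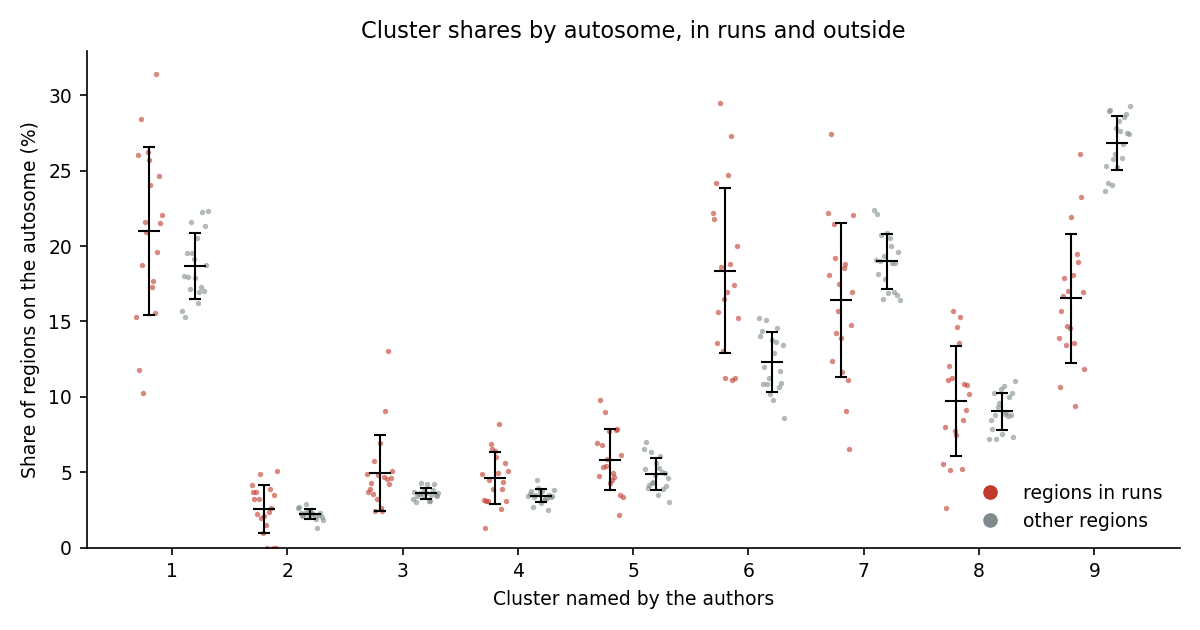
Share of each cluster (%) among regions in runs (red) and among other regions (grey); each small point is 1 autosome, and the bar and whiskers give the mean and SD over 19 autosomes. Cluster 9 lies lower in runs on all 19 autosomes and cluster 6 higher on 18, with a wider spread in runs, where each autosome has 46 to 266 regions.

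The shares also differed by the length of the run. Cluster 6 made up 11.8% of regions with no neighbour within 3000 bp, 13.8% in runs of 2 or 3, 17.6% in runs of 4 or 5 and 19.2% in runs of 6 or more. Cluster 9 went from 28.1% to 22.9%, 16.5% and 16.8% over the same classes. Cluster 5 had 4.9% in the first 2 classes, then 5.7% and 7.1%. Cluster 1 had 17.7%, 21.1%, 21.9% and 19.5%, with no steady order. Within runs, the first and last regions resembled the inner ones: cluster 6 made up 17.0% of the outer and 18.6% of the inner regions, and cluster 9 17.4% and 15.9%.

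**Figure D2:**
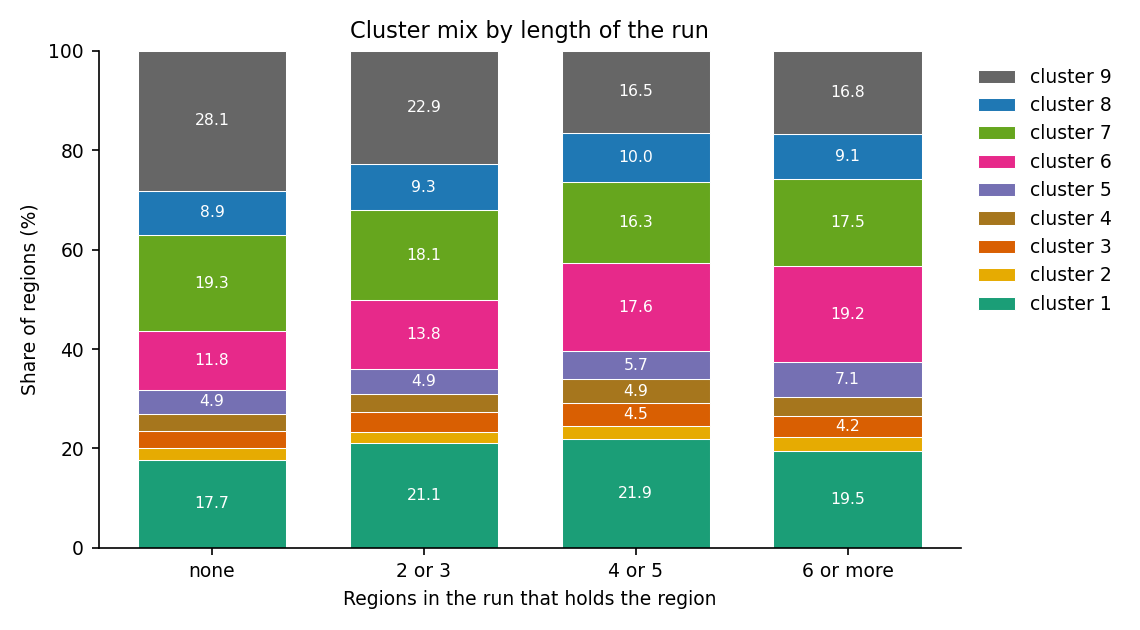
Cluster shares (%) of all autosomal regions, stacked, by the number of regions in the run that holds the region (none means no neighbour within 3000 bp). The cluster 6 band widens from 11.8% to 19.2% and the cluster 9 band narrows from 28.1% to 16.8% from left to right.

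Place and width were taken in turn, since both vary between clusters. Among regions inside genes, cluster 6 made up 20.7% in runs and 13.4% outside (higher on 15 autosomes), and cluster 9 18.4% and 30.7% (lower on all 19). Among intergenic regions the shares were 17.99% and 14.4% for cluster 6 and 17.9% and 30.4% for cluster 9. At gene ends cluster 6 had 10.3% and 5.76%, and cluster 9 had 9.01% and 10.0%, a difference of -1.02 points with 10 autosomes in the opposite direction. Within each of 3 classes of width (limits 355 and 729 bp), the difference was 3.37, 4.42 and 5.82 points from narrow to wide for cluster 6 and -11.7, -4.83 and -1.84 points for cluster 9. Cluster 1 was above in the narrow and middle classes (5.20 and 6.02 points) and below among wide regions (-1.40 points).

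Most runs were mixtures. Only 8 of 585 runs held a single cluster, 89 held 2 clusters, 247 held 3, 196 held 4, 37 held 5, 7 held 6 and 1 held 7. In 327 runs at least 1 cluster made up 50% or more of the regions, and a run with a pair of such clusters counts under both below. Cluster 1 did so in 105 runs, cluster 6 in 79, clusters 7 and 9 in 68 each, cluster 8 in 24, cluster 5 in 8, cluster 3 in 4, cluster 4 in 3 and cluster 2 in none. Of the 105 runs led by cluster 1, 69 had a region at a gene end, against 33 of the 79 led by cluster 6. The 8 runs of 1 cluster were 3 of cluster 6 (in Mpzl1, Kat6b and Klf5), 3 of cluster 1 (at Ebf3, in Ankrd13b and Git1, and between genes near Arhgef19) and 2 of cluster 7 (in Elovl6 and near Prmt9). Kat6b encodes a histone acetyltransferase, and Ebf3 a transcription factor of neural development. These were named after their values were seen, apart from Klf5 and Elovl6.

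Neighbours in a run shared a cluster in 17.8% ± 3.32 of pairs (SD, n = 19 autosomes; 368 of 2063 pairs). The cluster shares among members alone give 15.1%, the sum of their squares. The ratio of 1.184 was near those of neighbours farther apart: 1.16 in runs of 2 or 3, 1.16 at gaps above 3000 and up to 10000 bp, 1.11 at gaps up to 50000 bp and 1.07 above 50000 bp. Likeness was uneven between clusters. Cluster 6 stood next to cluster 6 in 96 pairs where shares alone give 66.1 (ratio 1.45), and next to cluster 5 in 65 where they give 43.8 (1.48, above on 15 autosomes). Its pairs with cluster 2 (29 and 20.4), cluster 3 (45 and 32.6) and cluster 4 (42 and 34.6) were also above in total. They were above on 10, 14 and 9 of 19 autosomes in the same order, so those with clusters 2 and 4 had no steady direction. Its pairs with cluster 1 (109 and 158), cluster 8 (57 and 72.5) and cluster 9 (82 and 122) were below. Pairs with cluster 1 were above on only 2 autosomes, those with cluster 8 on 7 and those with cluster 9 on 5. Cluster 5 stood next to cluster 5 in 13 pairs (shares alone 7.25) and next to cluster 9 in 25 (40.5). Clusters 8 and 9 adjoined in 86 pairs (67.0). In runs of 2 or 3, which share no region with these, the ratios were 1.22 for cluster 6 with itself, 1.46 with cluster 5, 0.844 with cluster 1 and 0.731 with cluster 9, while that of clusters 8 and 9 was 1.03.

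**Figure D3:**
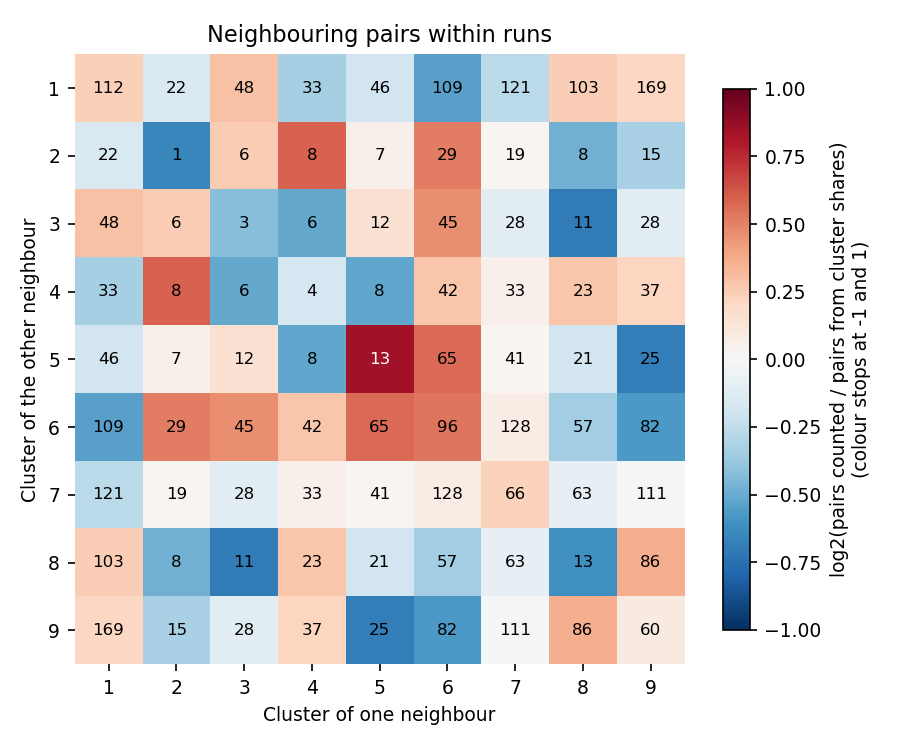
Number of neighbouring pairs within runs for each combination of clusters, coloured by the log2 ratio to the number that cluster shares among members give (red above, blue below; the order of the 2 neighbours is ignored, so the plot is symmetric). The row of cluster 6 is red with clusters 2 to 6, pale with cluster 7 and blue with clusters 1, 8 and 9, with 96 pairs of cluster 6 with itself.

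Member regions were wider than others, at a median of 638 bp against 469 bp. By autosome the medians ran from 484 to 793 bp in runs (median 635) and from 451 to 493 bp outside, and they were higher in runs on all 19 autosomes. Regions of 3000 bp or more made up 6.95% of members (184 regions) and 1.92% of the others. By ratio of medians the difference was 1.38 in cluster 3 (1734 and 1261 bp), 1.27 in cluster 4 and 1.25 in cluster 6 (727 and 580 bp), and small in cluster 1 (505 and 494 bp) and cluster 9 (311 and 292 bp). Wide regions leave smaller gaps, so width is linked to the rule. With midpoints at most 3500 bp apart the medians were 486 bp in runs and 473 bp outside. That setting keeps wide neighbours out, since no gap was below 1001 bp. It therefore cannot tell how far the gap rule favours wide regions, and the cause of the greater width was not tested. The widest members overlapped Etv5 (12664 bp, cluster 6), an Ets factor downstream of FGF signalling, Malat1 (11625 bp, cluster 6), an abundant nuclear noncoding RNA, Mllt6 (11048 bp, cluster 8, with its midpoint outside the gene), Myo10 (10339 bp, cluster 5) and Esrrb (10237 bp, cluster 6), an orphan nuclear receptor of the naive pluripotency network. The Malat1 region opened a run of 5 regions, of clusters 6, 3, 9, 9 and 1, that spanned 26.8 kb and overlapped no protein-coding gene. Malat1 and Mllt6 were named after their values were seen.

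The runs were no more often at gene ends than other regions were, but they lay closer to transcription starts. A region was placed at a gene end if its midpoint lay within 1 kb of either limit of a protein-coding gene. This held for 17.6% ± 4.81 of members (SD, n = 19 autosomes) and 18.8% of other regions, while 45.9% and 42.9% were inside genes and 36.5% and 38.2% intergenic; these differences were smaller than the spread over autosomes. The median distance to a transcription start was 10.2 kb for members and 24.8 kb for other regions. Only 12.9% of members lay within 1 kb of a start, against 15.5% outside, but 21.02% lay 1 to 5 kb away, against 7.89%, and 15.95% lay beyond 50 kb, against 34.5%. The 4 clusters with the highest shares at gene ends elsewhere had lower shares there within runs: the share at a gene end was 38.5% in runs and 65.3% outside for cluster 3, 45.2% and 63.5% for cluster 4, 41.1% and 65.6% for cluster 2, and 35.8% and 46.0% for cluster 8. It was higher in runs on only 3 of 19, 2 of 19, 3 of 16 and 3 of 19 autosomes in the same order. For cluster 9 it was 9.59% and 7.07%, higher on 15 autosomes.

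By run rather than by region, 314 runs (53.7%) had at least 1 region at a gene end by the midpoint rule. Another 162 overlapped a gene but had no region midpoint within 1 kb of a gene limit. The last 109 neither overlapped a gene nor had a region at a gene end. A wide region can cover a gene limit while its midpoint lies farther away. This was so in the runs at Cd9 (7003 bp) and Tet1 (3735 bp), which are among the 162. Of the 162, 132 had all their regions inside genes and 30 had some outside, among them the run of the miR-290 cluster. Cluster 6 made up 15.9%, 21.1% and 18.9% of regions in these classes, and cluster 1 24.4%, 18.8% and 16.8%. Clusters 3 and 4 together were most frequent in the first class, with 5.24% and 5.66%. A run overlapped the limits of 1 gene in 334 cases, of 2 or more in 136 and of none in 115. The run with the most genes was in the histone cluster on chromosome 13 and overlapped 9.

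The longest run lay over Cd9. It held 12 regions in 33.3 kb at chr6:125465274-125498526, of clusters 9, 7, 9, 6, 6, 6, 7, 9, 6, 7, 6 and 6, so that 6 of 12 were cluster 6. All 11 regions inside the limits of Cd9 were members. The next longest had 11 regions in 34.4 kb at chr7:141434596-141469019 and was unlike it, since it crossed 6 genes: Slc25a22, a mitochondrial glutamate carrier, Pidd1, Rplp2, an acidic ribosomal protein, Pnpla2, the main lipase of stored triglyceride, Cracr2b and Cd151. It had 7 regions at gene ends, 4 of cluster 1, 3 of cluster 8 and none of cluster 6.

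The run of 10 regions at Bcat1 spanned 32.3 kb from inside the gene across its start (chr6:145052867-145085121), with 3 regions of cluster 6, 2 of cluster 5 and 2 of cluster 7. Myo10 held the run with the widest span and the most clusters, 9 regions of 7 clusters in 41.6 kb (chr15:25750859-25792425), beside another run of 5 regions. Runs of 9 regions also lay in Dst, which encodes a linker of the cytoskeleton, in Elovl6, a fatty acid elongase, at Grasp, and between genes on chromosome 13 (chr13:23497881-23526738), 4306 bp from the histone gene H4c8. Elovl6 held 2 unlike runs: the first had 4 regions of cluster 5, more than any other run, and 3 of cluster 6, and the second 5 regions, all of cluster 7. The Grasp run ended in 4 successive regions of cluster 1 and 1 of cluster 9.

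Of the runs of 8 regions that the naming rule took, that over Dstn, an actin-severing protein, and Rrbp1 had 5 of cluster 6. The run in Adam19, a membrane metalloprotease, had 3. The run at Mroh6, Naprt and Eef1d had 1 and held 6 clusters. The last was intergenic, 12739 bp from Actb, with 6 clusters and no equal neighbours. Counted by gene, Dst and Myo10 had the most members inside their limits (14 of 38 and 14 of 34 accessible regions), followed by Elovl6 (13 of 17), Bcat1 (11 of 16), Cd9 (11 of 11), Adam19 (10 of 16), Tcf7l1, a repressor in the Wnt pathway (10 of 26), Foxn3 (9 of 23), Bcar3 (8 of 17) and Esrrb (8 of 18). In all, 584 genes held a member region.

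**Figure D4:**
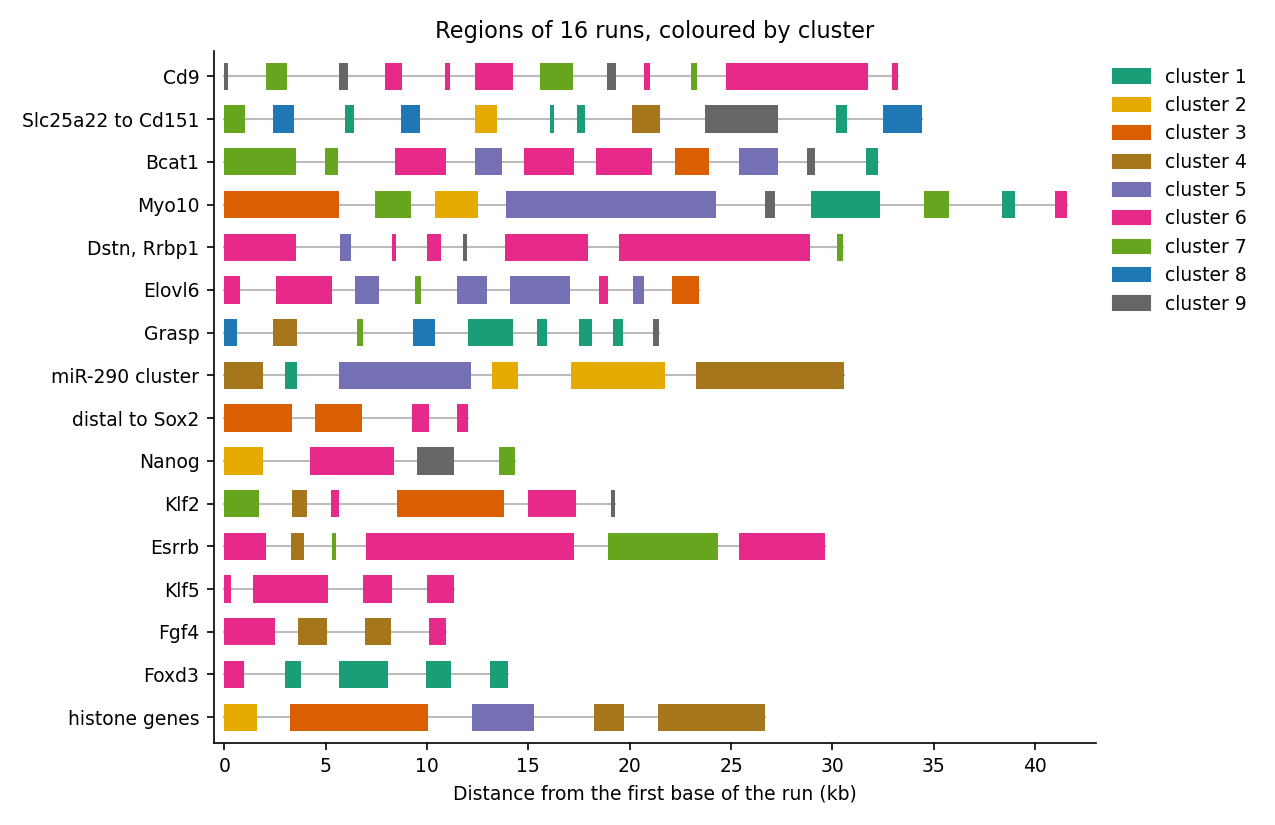
Regions of 16 runs drawn to scale against distance from the first base of the run (kb), coloured by cluster; the grey line joins regions of 1 run. Cluster 6 (pink) recurs in the runs at Cd9, Dstn, Klf5 and Esrrb, and cluster 1 (green) in those at Grasp and Foxd3; the widest region shown is 10339 bp, in Myo10.

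Of 20665 protein-coding genes on chromosomes 1 to 19, 464 had a member region at a gene end, which is 2.25% of them, and 641, or 3.1%, had limits that overlapped the span of a run. Overlap grows with gene length: the median length was 18.6 kb for overlapped genes, 11.3 kb for genes with a member at an end and 17.5 kb for all. The lists below were drawn from general knowledge of these genes, but with earlier results of these data known. Shares of a list carry exact binomial 95% intervals, which treat genes as independent. The intervals are given as a description and not as a test.

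Genes of the naive pluripotency network, which maintains the ground state of embryonic stem cells, were often beside runs. Of 35 such genes, 6 had a member region at a gene end (17.1%, 95% CI 6.56 to 33.6) and 11 overlapped a run (31.4%, 16.9 to 49.3), beside 2.25% and 3.1% of all genes. The 6 were Nanog, Klf2, Klf5, Esrrb, Fgf4 and Trim28, and the other 5 were Tfcp2l1, Dppa5a, Tet1, Socs3 and Lifr. Their 13 runs held 62 regions, of which 19 were cluster 6 (30.6%) and 9 were cluster 9 (14.5%). Among all members these shares were 17.9% and 16.5%. Cluster 6 regions were uneven between genes. The runs of Klf5 had 2 and 4, those of Esrrb 3 and 1, and each other run 0 to 2. With midpoints at most 3500 bp apart, 8.57% of the list overlapped a run, beside 1.65% of all genes, and without regions of 3000 bp or more 11.4%, beside 2.39%. The share with a member at a gene end was then 2.86% and 5.71%, beside 1.17% and 1.77% of all genes.

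The regions of these runs are given for the genes that the rule named. At Nanog, a homeobox factor of the network, 4 regions spanned 14.4 kb (chr6:122701964-122716322): 1931 bp of cluster 2 upstream, where an enhancer of Nanog is known, 4158 bp of cluster 6 over the gene start, 1852 bp of cluster 9 inside the gene and 806 bp of cluster 7 beyond it. Klf2, a zinc finger factor, had 6 regions of 5 clusters in 19.3 kb, with a cluster 3 region of 5272 bp over the gene and cluster 6 regions on both sides. Klf5, of the same family, had 2 runs: in order, the first had clusters 6, 6, 9 and 4 and the second 4 regions of cluster 6. Esrrb also had 2, with 6 regions in 29.7 kb (clusters 6, 4, 7, 6, 7 and 6) and 5 regions in 10.9 kb (clusters 6, 7, 7, 1 and 7). Fgf4, a growth factor that primes stem cells for differentiation, had cluster 4 at both gene ends with cluster 6 on either side, and no run had more than its 2 regions of cluster 4.

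Other genes of the list had runs of another make. Tet1, an enzyme that oxidises methylated cytosine, had 4 successive regions of cluster 9 and then 1 of cluster 6, and no run had more regions of cluster 9. Socs3, a feedback inhibitor of LIF signalling (clusters 4, 3, 1 and 5), and Lifr, the LIF receptor (clusters 8, 5, 1 and 7), had no cluster 6 region, nor did Tfcp2l1 (clusters 3, 5, 7, 9 and 7). Socs3, Lifr, Tfcp2l1, Dppa5a and Trim28 were named after their values were seen. The nearest protein-coding gene to an intergenic run of 4 regions at chr3:34755241-34767256 was Sox2, 102780 bp away. The run had 2 regions of cluster 3 (3363 and 2315 bp) and then 2 of cluster 6 (828 and 518 bp), and a distal control region downstream of Sox2 is known in embryonic stem cells. It does not enter the count for the list, since it does not overlap the gene.

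**Figure D5:**
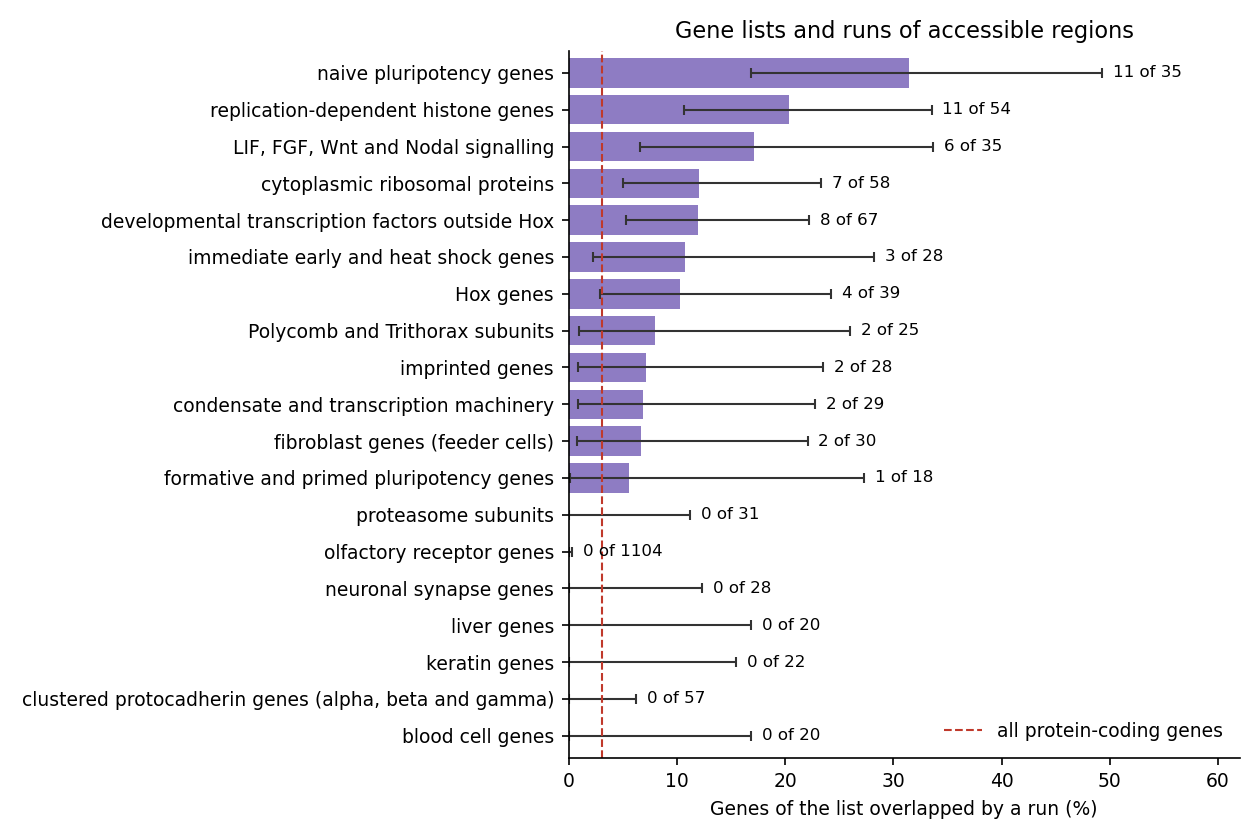
Share of the autosomal genes of each list whose limits overlap a run (%), with exact binomial 95% intervals and counts; the dashed line is the share of all protein-coding genes, 3.1%. The naive pluripotency list is at the top with 11 of 35, and 7 lists have no overlapped gene.

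Developmental transcription factors outside the Hox clusters, most of which act in later lineages, had another mix of clusters. Of 67 genes, 7 had a member region at a gene end (Pax6, Pax9, Foxd3, Nkx2-2, Dlx2, Msx1 and Gbx2) and Lhx2 also overlapped a run, so 8 overlapped (11.9%, 95% CI 5.30 to 22.2). In their 8 runs, 17 of 36 regions were cluster 1 (47.2%) and 4 were cluster 6, beside 21.5% and 17.9% of all members. Foxd3, a factor of the neural crest that is also needed in stem cells, had 1 region of cluster 6 and then 4 of cluster 1. Dlx2, Msx1 and Lhx2, named after their values were seen, had 3 of 4 regions in cluster 1. The run at Pax6, the eye and forebrain regulator, had none (clusters 7, 9, 5, 6 and 7). Of 39 Hox genes, 4 overlapped a run (Hoxa3, Hoxc12, Hoxd10 and Hoxd11), in 3 runs with no region of cluster 6. Their share was 10.3% (95% CI 2.87 to 24.2), an interval that took in the 3.1% of all genes. None overlapped a run with gaps of 2000 bp or less. With gaps of 5000 bp or less 41.0% did, beside 10.6% of all genes.

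Replication-dependent histone genes, which are packed in clusters, counted 8 of 54 with a member at a gene end and 11 overlapping (20.4%), but all 11 lay in 2 runs on chromosome 13 and are not separate cases. None overlapped a run with gaps of 2000 bp or less or with midpoints at most 3500 bp apart, and 3.70% did without regions of 3000 bp or more. The run over H1f2 and H2ac4 (chr13:23738585-23765265) had clusters 2, 3, 5, 4 and 4, and that over H1f5 clusters 4, 3, 2 and 6. Cytoplasmic ribosomal protein genes overlapped a run in 7 of 58 cases (12.1%, 95% CI 4.99 to 23.3), each in a run of its own, with Rpl3, Rpl8 and Rpl18 among them. By the midpoint rule, the region at a gene end was of cluster 4 at 4 of the 7, Rpl3, Rpl8, Rpl28 and Rpl32. It was of other clusters at Rpl18, Rplp2 and Rps10. At Rpl3 a cluster 3 region of 3592 bp covered the other gene limit, with its midpoint more than 1 kb from it. Rpl28, Rpl32 and Rps10 were named after their values were seen. With midpoints at most 3500 bp apart, 3.45% of ribosomal protein genes and 4.48% of developmental factors overlapped a run, and without regions of 3000 bp or more 8.62% and 7.46%, beside 1.65% and 2.39% of all genes.

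Of the 35 genes of LIF, FGF, Wnt and Nodal signalling, 6 overlapped a run (17.1%, 95% CI 6.56 to 33.6). The share of all genes was 3.1%. Only 1 had a member region at a gene end (2.86%, 95% CI 0.0723 to 14.9), near the 2.25% of all genes. With midpoints at most 3500 bp apart 5.71% of the list overlapped a run, and with gaps of 2000 bp or less none did. Runs of 3 or more regions gave 40%, beside 8.85% of all genes, and gaps of 5000 bp or less 42.9%, beside 10.6%. At gene ends these 2 settings gave 20% and 28.6%, beside 6.00% and 7.88% of all genes. The 6 that overlapped a run by the main limits were Id3, a target of BMP signalling, with a member at its end, and Tcf7l1, Cdx1, Etv5, Lifr and Socs3. Lifr and Socs3 are also in the naive list. Of 28 immediate early and heat shock genes 3 did, Fosb, Hspa8 and Hsp90aa1. Of 25 Polycomb and Trithorax genes 2 did, Ring1, a ubiquitin ligase of Polycomb complexes, and Kdm2b, which brings such a complex to CpG islands, and 5 of the 8 regions in their runs were cluster 1. Of 29 genes of condensates and the transcription machinery 2 did, Cdk9, the kinase that releases paused RNA polymerase II, and Tardbp. Of 28 imprinted genes 2 did, Cdkn1c and Plagl1, and of 18 formative and primed pluripotency genes 1 did, Etv5. For these 5 lists, with counts of 1 to 3, the intervals took in the 3.1% of all genes. Their shares depend on the limits. With runs of 3 or more regions, 36% of the Polycomb and Trithorax list and 21.4% of the immediate early list overlapped a run. The rest had 13.8% to 17.9%, beside 8.85% of all genes. Gaps of 5000 bp or less gave 48%, 28.6% and, for the rest, 14.3% to 24.1%, beside 10.6%. Gaps of 2000 bp or less gave 3.57% for the immediate early list and 0 for the others, beside 0.731%.

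Several lists of other cell types had no gene beside a run. None of 28 neuronal synapse, 20 liver, 20 blood cell, 22 keratin, 57 clustered protocadherin and 1104 olfactory receptor genes overlapped a run, nor did any of 31 proteasome genes, which are active in all cells. For the lists of 20 genes, a count of 0 leaves an upper 95% limit of 16.8%, and for the olfactory receptors one of 0.334%. Few genes of some lists had any accessible region at a gene end: 16 olfactory receptor, 7 liver, 6 blood cell and 7 keratin genes. The counts were 19 for neuronal, 30 for protocadherin and 31 for proteasome genes, beside 12914 of all 20665. How far the zeros go with few accessible regions of any kind was not tested. Some of these zeros depend on the limits: with runs of 3 or more regions, 28.1% of protocadherin, 14.3% of neuronal and 10% of blood cell genes overlapped a run, beside 8.85% of all genes, and with gaps of 5000 bp or less 31.6%, 17.9% and 5%, beside 10.6%. Liver, keratin and olfactory receptor genes had none under either. Of 30 fibroblast genes, listed because the cells grew on fibroblast feeders, 2 overlapped a run (6.67%), Fn1, which encodes fibronectin and is also active in stem cells, and Pdgfrb. The interval of this share (95% CI 0.818 to 22.1) took in the 3.1% of all genes. The Fn1 run had clusters 7, 5, 6, 3 and 2 and the Pdgfrb run, which also overlapped Cdx1, clusters 8, 1, 1 and 1. The part of feeder cells in these 2 runs was not tested.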

How the data were processed

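The submitters' processing notes name mm10 and 4 tools: Bowtie2 2.3.3.1, SAMtools 1.6, cutadapt 1.18 and Picard. No source used here says how regions were called and clustered. The deposited table gives positions, counted here from 1, and a cluster name. Values per library were not at hand, so the planned fits between groups were replaced by descriptions. Regions on chromosomes 1 to 19 were sorted by start, and 1401 regions elsewhere were left out. Runs, pairs, widths and places were computed with Python 3.11.15, numpy 2.4.6, pandas 2.3.3 and SciPy 1.17.1, and plots drawn with matplotlib 3.10.9. The code was checked on simulated data. Gene limits, promoters and microRNAs came from RefSeq (GRCm38.p6). The gene table has no strand, so a gene end is either limit. Members and gene lists were chosen with earlier results of these data known. Named were the 12 runs with most regions, the run with most regions of each cluster, the first 3 genes of each list with a member region at a gene end, the 10 genes with most members, and among runs of 6 or more the 3 with most and the 3 with fewest clusters. Other genes are said to be named after their values were seen, or stand in the complete count of a list.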

Additional observations from a re-analysis of the deposited data

How the results depend on the processing

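The gap limit sets what counts as a run. Gaps of 2000 bp or less gave 156 runs with 669 regions, gaps of 5000 bp or less 1766 with 8807, runs of 3 or more 2014 with 6935, runs of 5 or more 191 with 1072, midpoints 3500 bp or less apart 347 with 1518, and regions of 300 bp or more 314 with 1382. In the same order, 0.542%, 7.88%, 6.00%, 0.832%, 1.17% and 1.33% of protein-coding genes had a member region at a gene end, and 0.731%, 10.6%, 8.85%, 1.09%, 1.65% and 1.76% overlapped a run. Without regions of 3000 bp or more these shares were 1.77% and 2.39%. A window of 500 bp gave 1.53% of genes, one of 2500 bp 2.76%, any overlap with the 1 kb window 2.62%, and all annotated genes 1.51%, with 2.00% overlapping a run. Member regions at a gene end were 11.4% with 500 bp, 29.7% with 2500 bp and 24.1% with all annotated genes, where 26.5% were intergenic.

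Cluster 6 lay above the other regions and cluster 9 below them in all 11 alternatives tried for them, by 2.91 to 10.9 points (10.9 with gaps of 2000 bp or less) and by -13.6 to -6.33 points. Clusters 1, 5 and 7 also kept their direction. Cluster 8 turned to -2.51 points with gaps of 2000 bp or less. With midpoints 3500 bp or less apart, clusters 2, 3 and 4 turned to -0.20, -0.92 and -0.22 points. The median width of members was 486 bp with midpoints, 866 bp without regions narrower than 300 bp and 553.5 bp without those of 3000 bp or more. The cause of these changes was not tested. The comparison with runs of 2 or 3 only was chosen after seeing the data. No paired analysis was possible because the table has no values per library, and the replicate, leave-one-out, normalisation and filter alternatives were not run for the same reason. Depth is unknown, so how it limits which regions were called cannot be stated.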

Other observations

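Chromosome X was outside the rule. Of its 1371 accessible regions, 12 (0.875%) lay in 3 runs of 4 by the same limits, below the lowest autosome (1.92%). The runs were in Glod5 (clusters 8, 7, 7 and 7), in Atrx, which encodes a chromatin remodeller (clusters 9, 7, 6 and 8), and between genes, 170658 bp from Olfr1324 (clusters 9, 1, 6 and 1). The cause of this low share was not tested.

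Among further microRNAs in runs, Mir23b, Mir27b and Mir24-1 lay together in a cluster 1 region inside Aopep, in a run of clusters 1, 7, 9 and 9. Mir2861 lay in the cluster 3 region of the run at Cdk9, and Mir219a-1 and Mir219c in the cluster 4 region at Ring1.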
